A study of Prunus sibirica with 6 samples.

Results

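NF-Y is a plant and animal transcription factor built from a subunit of each of the classes NF-YA, NF-YB and NF-YC, and its transcripts were followed here in flower buds of Siberian apricot (Prunus sibirica). The members are the 21 transcript clusters that the authors' table of transcriptional regulators places in these families, out of 1508 clusters in that table: 6 NF-YA, 8 NF-YB and 7 NF-YC. The RNA came from 3 bud samples of clone No. 1, which is male sterile, and 3 of clone No. 60, which is male fertile, all labelled as the microspore stage. A clone shares 1 genotype, so effects of sterility cannot be told apart from those of any other difference in genotype between No. 1 and No. 60, and the labels give no treatment for either. The labels do not say whether the samples of a clone came from separate trees, so p-values measure only the spread between these samples. In whole buds, fewer cells of a type and less RNA per cell cannot be told apart.

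NF-YB and NF-YC each carry a histone fold, pair with each other in the cytoplasm, and are joined in the nucleus by NF-YA, the subunit that recognises the CCAAT box of promoters. In Arabidopsis the families are large, most NF-YA transcripts are targets of the microRNA miR169, and NF-YB and NF-YC dimers can also take up CONSTANS-type proteins in place of NF-YA when flowering is induced. Several Arabidopsis NF-YA genes act in male gametogenesis, and NF-YB genes of the LEC1 type act in the embryo.

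All 6 NF-YA clusters carried the NF-YA domain, all 15 NF-YB and NF-YC clusters carried the core histone fold, and no other cluster of the 1508 had either domain in its annotation. The domain annotation thus fitted the classes, but the names did not always. A nucleotide or Swiss-Prot hit named 17 of the 21 an NF-Y subunit. The other 4 matched relatives with the same fold. In the NF-YB class this was Cluster-6671.17786, which matched DNA polymerase epsilon subunit 3 (POLE3), a replication and chromatin protein. In the NF-YC class 3 clusters matched Dr1-associated corepressor (DRAP1), a partner of Dr1 that represses transcription at the TATA-binding protein, although for Cluster-6671.11440 the nucleotide match was to a WAS/WASL-interacting protein of Prunus mume. Clusters are called below by their best Swiss-Prot gene, mostly of Arabidopsis thaliana or rice, except Cluster-6671.1913, which had none and is named from its Prunus protein and nucleotide matches. A shared name does not show that a cluster is the same gene. The Prunus mume match often carried another number: A-1 for the NFYA9 cluster, B-3 for the NFYB6 cluster, C-3 and C-3-like for the NFYC9 pair and C-2 for the NFYC4 cluster. The clusters come from assembled transcripts, so no genome position is given, and reads of close relatives or of alleles may have been divided between clusters.

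The regulator table held 957196 to 1122298 estimated counts in the sterile and 1242099 to 1424835 in the fertile libraries. Fertile replicate 1 stood apart from the other fertile libraries, with a chi-square per degree of freedom of 11.5 to 12.3, against 1.57 to 1.77 for sterile pairs and 1.74 for the remaining fertile pair. FPKM (fragments per kilobase of cluster, scaled to library depth) of the listed floral organ regulators summed to 359 to 373 in sterile and 345 to 362 in fertile buds. Of the 7 tested on that list, 3 were higher in sterile buds and 2 lower, where 28.0% and 28.9% of all 1380 tested regulators were. The match by name also took in ULT1 clusters, which are not of the MADS families of the rest. One of them (Cluster-6671.12946), at 50.6 ± 0.355 FPKM in sterile and 40.1 ± 0.448 FPKM in fertile buds, was among the higher ones. The leaf and meristem list summed to 22.3 to 23.1 FPKM in sterile and 21 to 21.5 FPKM in fertile buds. Beside the same shares of all regulators, 1 of its 3 tested members was higher and 1 lower, both named SVP (log2 fold changes of 0.36 and -0.97). The 7 anther and tapetum regulators summed to 200 to 208 FPKM in sterile and 80.6 to 84.9 in fertile buds, with bHLH10 at 135 ± 2.65 FPKM in sterile and 24.9 ± 0.87 FPKM in fertile buds, while MALE STERILITY 1 was near 0 in fertile buds (2 counts). Most of the difference in that sum lay in bHLH10. Of these 7 anther regulators, 3 were higher, 2 lower and 2 too low to test, where 28.0% of all tested regulators were higher and 28.9% lower. The lower ones were an AMS cluster (log2 fold change -0.28) and a MYB35 cluster (-0.68), while another AMS cluster was higher (0.52). The part of these anther regulators in the NF-Y results was not tested.

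Most NF-Y clusters differed little between the clones, and the large change was in a single NF-YB cluster. Of the 21, 5 were higher in sterile buds, 4 lower and 11 not called by edgeR's quasi-likelihood test at an adjusted p of 0.05, and 1 was too low to test. That is 45.0% called of the 20 tested, against 57.0% of all 1380 regulators tested (28.0% higher and 28.9% lower). The median log2 fold change, sterile over fertile, was 0.03 for NF-YA, 0.21 for NF-YB and 0.06 for NF-YC, against 0.01 for all tested regulators.

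How many small differences were called varied with the scale of the libraries, with the method and with the libraries included. The test scaled libraries by TMM within the regulator table, and each change is relative to the average regulator. With totals of the whole libraries, as implied by count, length and FPKM, 12 NF-Y clusters were higher and 3 lower, where 62.6% of all tested regulators were called (41.1% higher and 21.5% lower) and their median was 0.15. Limma on log2(FPKM + 1) also called 12 higher and 3 lower, where 63.2% of regulators were called (42.5% higher and 20.7% lower). DESeq2 called 3 higher and 4 lower, where it called 47.5% of regulators (22.6% higher and 24.9% lower). FPKM, in which values are printed below, follows the whole-library scale. In FPKM, 12 of the 21 clusters had all sterile libraries above all fertile ones and 4 had all of them below, where 46.2% and 22.5% of the 1380 regulators did so. In TMM-scaled counts 6 lay above, 4 below and 10 overlapped, where 32.1% and 31.7% of regulators lay above and below. Without fertile replicate 1 edgeR called 10 NF-Y clusters higher and 4 lower, where it called 65.3% of regulators (32.8% higher and 32.5% lower). Without sterile replicate 2 it called 3 higher and 3 lower, where it called 50.6% (23.0% and 27.5%). Leaving out fertile replicate 2 gave 3 higher and 4 lower, with 53.7% of regulators called (25.6% and 28.1%).

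**Figure D1:**
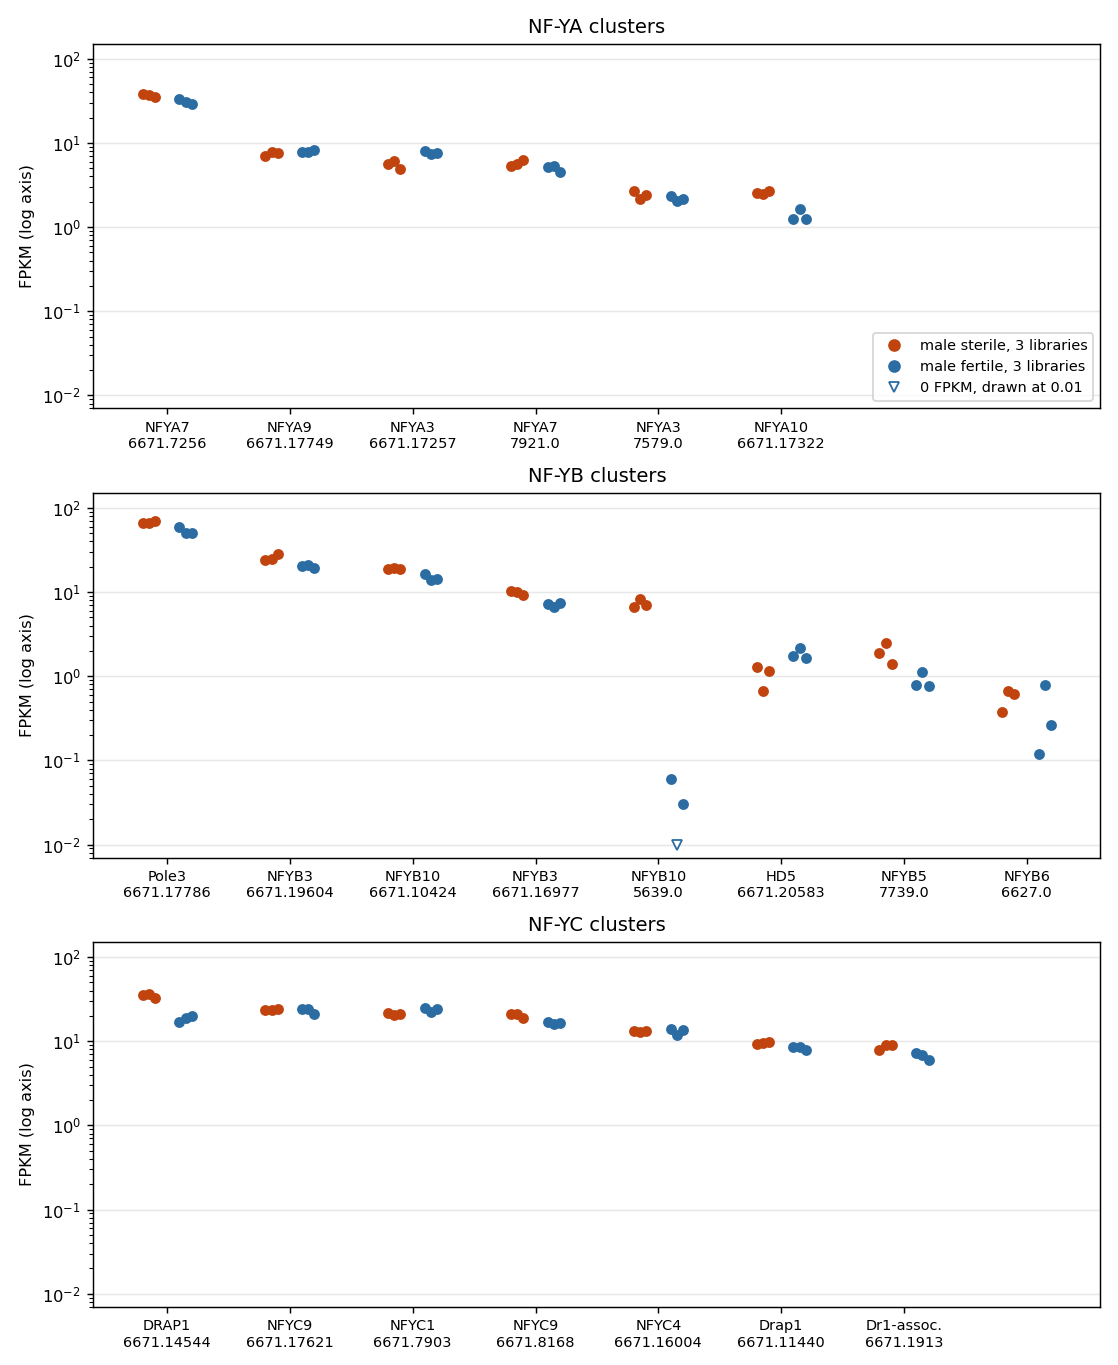
FPKM on a log axis of each NF-Y cluster, in 3 panels by subunit class, with 1 point per library for male sterile buds (left, orange) and male fertile buds (right, blue). Names under the axis are Swiss-Prot genes and cluster numbers. Cluster-5639.0, in the NF-YB panel, is the member whose groups lie far apart, at 6.72 to 8.3 FPKM in sterile and 0 to 0.06 in fertile buds.

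Among the NF-YA subunits, which give the complex its DNA specificity, 1 cluster was higher in sterile buds, 2 were lower and 3 were not called. NFYA7 (Cluster-6671.7256, 1293 bases) was the most abundant and took 60.7% of the class FPKM in sterile and 55.9% in fertile buds. It stood at 37.74, 36.89 and 34.92 FPKM in sterile and 32.89, 30.46 and 28.75 FPKM in fertile libraries. The sterile libraries all lay above the fertile ones in FPKM, yet on the TMM scale the groups overlapped and the log2 fold change was 0.09 ± 0.08 (SE), with an edgeR adjusted p of 0.327. With the implied whole-library totals it was 0.23 ± 0.07 and called (adjusted p = 0.0114), and without fertile replicate 1 it was called at 0.16 (0.0247), over a range of adjusted p of 0.00543 to 0.752.

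NFYA3 (Cluster-6671.17257), whose Arabidopsis namesake acts with NFYA8 in early embryo development, was lower in sterile buds. It stood at 5.62, 6.06 and 4.88 FPKM in sterile and 8.05, 7.46 and 7.56 FPKM in fertile libraries. Every sterile library lay below every fertile one, and the log2 fold change was -0.62 ± 0.10 (SE; edgeR adjusted p = 2.48e-05). The call held in all 17 alternative settings, with adjusted p up to 0.00231. A second NFYA3 cluster (Cluster-7579.0) was not called, at 2.42 ± 0.29 FPKM in sterile and 2.17 ± 0.146 FPKM in fertile buds (SD, n = 3 each).

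NFYA10 (Cluster-6671.17322), whose Arabidopsis namesake acts in leaf growth, was the NF-YA cluster that rose. It stood at 2.54, 2.45 and 2.65 FPKM in sterile and 1.25, 1.63 and 1.26 FPKM in fertile libraries. The groups did not overlap, and the log2 fold change was 0.74 ± 0.13 (SE; edgeR adjusted p = 8.13e-05), called in all 17 alternatives (adjusted p up to 0.00245). The assembled cluster is long (4296 bases) with its coding match in several pieces, as is that of NFYA9 (4610 bases).

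NFYA9 (Cluster-6671.17749), one of the Arabidopsis genes with a role in male gametogenesis, was slightly lower in sterile buds. It stood at 7.05, 7.75 and 7.57 FPKM in sterile and 7.84, 7.83 and 8.23 FPKM in fertile libraries. The groups were separate by a narrow margin, and the log2 fold change was -0.23 ± 0.07 (SE; edgeR adjusted p = 0.00804). It was no longer called on the implied totals (-0.10, adjusted p = 0.213), with limma on FPKM and without sterile replicate 1 (-0.17), over a range of adjusted p from 0.00153 to 0.315. A further NFYA7 cluster (Cluster-7921.0), which matches a Prunus gene named A-1-like, stood at 5.7 ± 0.464 FPKM in sterile and 4.97 ± 0.384 FPKM in fertile buds and was not called.

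Among the NF-YB subunits, 3 clusters were higher in sterile buds, 1 was lower, 3 were not called and 1 was too low to test. That is 57.1% of the 7 tested, near the 57.0% of all 1380 regulators tested (28.0% higher and 28.9% lower). The change of size lay in Cluster-5639.0 (1690 bases), whose best Swiss-Prot hit is NFYB10 of rice. Its estimated counts were 152, 207 and 188 in the sterile libraries and 2, 0 and 1 in the fertile libraries. In FPKM it stood at 6.72, 8.3 and 7.02 in sterile and 0.06, 0 and 0.03 in fertile libraries. The 3 fertile values lay at or below what 3 counts would give in those libraries, 0.0702 to 0.0803 FPKM, so the transcript was close to undetected there.

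Scaled to library size, the 547 counts in sterile and 3 in fertile buds gave a ratio of 224, with an exact 95% binomial interval of 76.3 to 1090 that covers counting error only. The edgeR adjusted p was 2.28e-12, and the highest over the 17 alternatives was 6.98e-08. This cluster passed the low-count filter through its sterile libraries alone, and the alternatives refit the same libraries. The p-values are therefore not support separate from the counts. Cluster-5639.0 made up 5.54% of the NF-YB FPKM in sterile and 0.0305% in fertile buds. In the authors' deposited table it is the only NF-Y cluster marked as changed, with a log2 fold change of 7.87 and a q-value of 1.10e-18. The authors' deposited marks cover 12.4% of all regulators, up or down.

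No NF-Y cluster showed the opposite pattern. Among all regulators, 6 of the 1508 clusters (0.398%) had at most 3 counts in 1 clone and at least 100 in the other, and 3 of them (0.199%) were near absent in fertile buds, of which Cluster-5639.0 had the most counts in sterile buds. Its protein match was to a poplar protein and its nucleotide match to a peach sequence (Prunus persica) described only as a hypothetical protein. Whether the fertile clone lacks the gene, does not transcribe it or carries an allele assembled elsewhere was not tested.

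**Figure D2:**
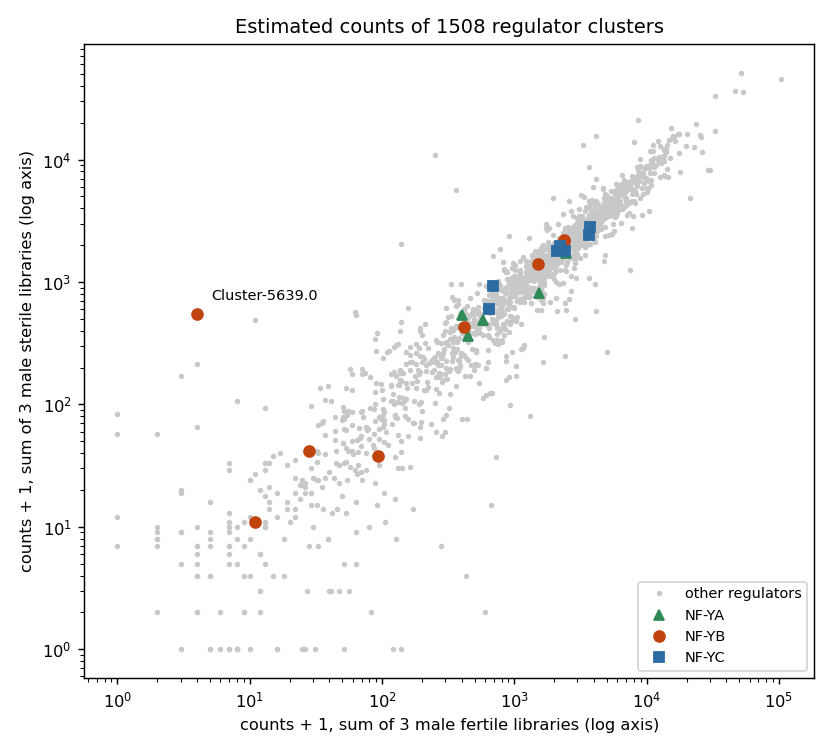
Estimated counts plus 1, summed over the 3 male sterile (vertical) and the 3 male fertile libraries (horizontal), on log axes, for 1508 regulator clusters, with NF-YA, NF-YB and NF-YC clusters in colour. All NF-Y clusters but Cluster-5639.0 (547 counts in sterile, 3 in fertile buds) lie in the main diagonal cloud.

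The other NF-YB clusters that rose did so by small amounts. The Arabidopsis-type NFYB10 cluster (Cluster-6671.10424) stood at 18.89, 19.49 and 18.58 FPKM in sterile and 16.55, 13.8 and 14.24 FPKM in fertile libraries. The groups were separate in FPKM and overlapped on the TMM scale, with a log2 fold change of 0.21 ± 0.08 (SE; edgeR adjusted p = 0.0381). The call held in 10 of 17 alternatives and was lost in DESeq2, with no low-count filter and without any of 5 libraries (all but fertile replicate 1), with adjusted p from 2.89e-06 to 0.177.

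NFYB3, which in Arabidopsis promotes flowering in long days together with NFYB2, named a pair of clusters. Cluster-6671.16977 stood at 10.38, 10.09 and 9.36 FPKM in sterile and 7.14, 6.59 and 7.37 FPKM in fertile libraries, without overlap. It was higher by a log2 fold change of 0.34 ± 0.12 (SE; edgeR adjusted p = 0.0252). The call was lost in DESeq2 (0.33) and without any of fertile replicate 2 (0.28) and sterile replicates 1 (0.34) and 2 (0.29), with adjusted p from 4.27e-04 to 0.102. Cluster-6671.19604, the more abundant of the pair at 25.5 ± 2.43 FPKM in sterile and 20.2 ± 0.733 FPKM in fertile buds, was not called (log2 fold change 0.18, adjusted p = 0.085). Its groups did not overlap on either scale, and it was called with the implied whole-library totals (0.32), when summed with its namesake (0.22), and without fertile replicate 1 (0.21) or sterile replicate 1 (0.25), over adjusted p of 0.00287 to 0.527.

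A cluster named by HD5 of rice (Cluster-6671.20583), a gene that sets heading date in that species, was lower in sterile buds. It stood at 1.3, 0.66 and 1.16 FPKM in sterile and 1.75, 2.17 and 1.65 FPKM in fertile libraries, without overlap. From a sum of 37 counts in sterile buds and 92 in fertile buds, the log2 fold change was -1.01 ± 0.32 (SE; edgeR adjusted p = 0.0125). The call was lost without fertile replicate 2 (-0.88) or sterile replicate 2 (-0.80), with adjusted p from 0.00648 to 0.0624.

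The most abundant cluster placed in the NF-YB class was POLE3 (Cluster-6671.17786), at 65.88, 65.82 and 70.23 FPKM in sterile and 58.89, 50.9 and 49.79 FPKM in fertile libraries. All sterile values were above all fertile ones in FPKM, but the TMM-scaled groups overlapped and the cluster was not called (log2 fold change 0.17, adjusted p = 0.0832). POLE3 was called by edgeR on the implied totals (0.31, adjusted p = 0.00261) and without fertile replicate 1 (0.27), over adjusted p of 5.98e-05 to 0.347. NFYB5 (Cluster-7739.0) had 41 counts in sterile and 27 in fertile buds, 1.91 ± 0.526 against 0.89 ± 0.2 FPKM, and was not called either (0.89 ± 0.41, adjusted p = 0.073), but was with the implied totals (1.03, adjusted p = 0.0372), over a range of 0.00569 to 0.311. NFYB6 (Cluster-6627.0), whose Arabidopsis namesake LEC1-LIKE acts in the embryo, had 10 counts in sterile and 10 in fertile buds. Its scaled ratio was 1.23 with an exact 95% interval of 0.459 to 3.29, so a difference of up to about that size was not detectable at this depth.

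**Figure D3:**
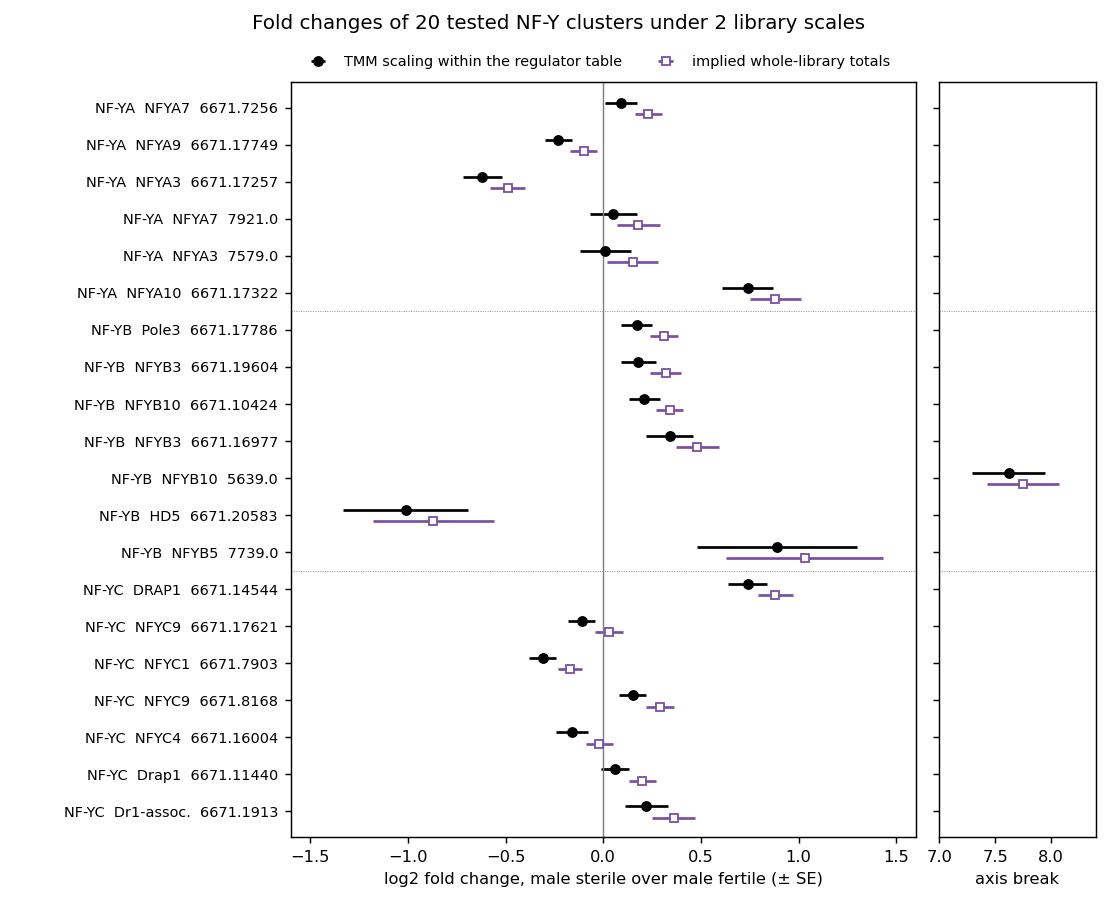
Log2 fold change, male sterile over male fertile, with its standard error, for the 20 tested NF-Y clusters by subunit class, from edgeR with TMM scaling (black) and with implied whole-library totals (purple). The purple points lie to the right of the black ones throughout. Cluster-5639.0 is drawn past the break, at 7.62 and 7.75.

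In the NF-YC class 1 cluster was higher in sterile buds, 1 was lower and 5 were not called. That is 28.6% of the 7 tested, against 57.0% of all 1380 regulators tested (28.0% higher and 28.9% lower). The member that rose was a Dr1-associated corepressor and not an NF-Y subunit by name. This DRAP1 cluster (Cluster-6671.14544, 788 bases) was the most abundant of the class in sterile buds, at 35.63, 36.39 and 32.98 FPKM in sterile and 16.97, 18.77 and 19.85 FPKM in fertile libraries. The groups lay well apart. The log2 fold change was 0.74 ± 0.10 (SE; edgeR adjusted p = 3.99e-06), called in all 17 alternatives (adjusted p up to 1.67e-04).

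NFYC1 (Cluster-6671.7903), a subunit of the CCAAT-binding complex, was lower in sterile buds. It stood at 21.61, 20.59 and 21.03 FPKM in sterile and 24.68, 22.25 and 23.92 FPKM in fertile libraries. No sterile library reached the lowest fertile one, and the log2 fold change was -0.31 ± 0.07 (SE; edgeR adjusted p = 8.72e-04). The call held in all 17 alternatives, at -0.17 with the implied whole-library totals (adjusted p = 0.0269) and with the highest adjusted p at 0.0397.

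NFYC9, which in Arabidopsis acts with NFYC3 and NFYC4 in flowering and seedling light responses, named a pair of clusters. Cluster-6671.17621 stood at 23.7 ± 0.531 FPKM in sterile and 23.1 ± 1.52 FPKM in fertile buds (SD, n = 3 each), with overlapping groups and a log2 fold change of -0.11, which turned to 0.03 with the implied whole-library totals. Cluster-6671.8168 stood at 20.3 ± 1.2 FPKM in sterile and 16.5 ± 0.391 FPKM in fertile buds and was not called (log2 fold change 0.15, adjusted p = 0.0803). It was called with the implied totals (0.29) and without fertile replicate 1 (0.19), over adjusted p of 0.00195 to 0.946. NFYC4, named from rice (Cluster-6671.16004), had overlapping groups at 13.1 ± 0.348 FPKM in sterile and 13.3 ± 1.14 FPKM in fertile buds. It was not called (-0.16, adjusted p = 0.0971), but was called lower without fertile replicate 2 (-0.24) and with no low-count filter (-0.19), over adjusted p of 0.016 to 0.909. The remaining DRAP1-type clusters, at 9.57 ± 0.37 against 8.31 ± 0.435 FPKM (Cluster-6671.11440) and 8.67 ± 0.618 against 6.7 ± 0.626 FPKM (Cluster-6671.1913), were not called. Both were called with the implied totals (0.20 and 0.36), and Cluster-6671.1913 without fertile replicate 1 (0.29), over adjusted p of 0.0238 to 0.948 and 0.00659 to 0.35.

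Summed over its clusters, each class had more FPKM in the sterile libraries, by unequal amounts. The NF-YA sum was 60.9, 60.9 and 58.6 FPKM in sterile and 57.5, 54.7 and 52.5 FPKM in fertile libraries. This was a ratio of 1.10, and the groups overlapped once FPKM was rescaled by median ratios over 17107 expressed clusters. The NF-YB sum was 129, 132 and 137 FPKM in sterile and 106, 96.2 and 93.5 FPKM in fertile libraries, a ratio of 1.35, or 1.28 rescaled. The NF-YC sum was 132, 133 and 130 FPKM in sterile and 112, 109 and 109 FPKM in fertile libraries, a ratio of 1.20, or 1.13 rescaled.

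Restricted to clusters named as NF-Y subunits, the NF-YB and NF-YC sums parted. The 7 such NF-YB clusters summed to 65.3 ± 1.72 FPKM in sterile and 45.3 ± 1.58 FPKM in fertile buds (SD, n = 3 each), a ratio of 1.44, or 1.37 rescaled. Cluster-5639.0 gave 7.35 FPKM of the sterile and 0.03 FPKM of the fertile sum, a part of that difference. The NFYB3 clusters (25.5 against 20.2 FPKM, not called, and 9.94 against 7.03) and the Arabidopsis-type NFYB10 cluster (19 against 14.9) also added to it. HD5 went the other way (1.04 against 1.86 FPKM). The 4 such NF-YC clusters summed to 78.3 ± 0.894 FPKM in sterile and 76.5 ± 2.83 FPKM in fertile buds, with overlapping groups and a ratio of 1.02, or 0.970 rescaled. The sums are descriptions of chosen members and were not tested.

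**Figure D4:**
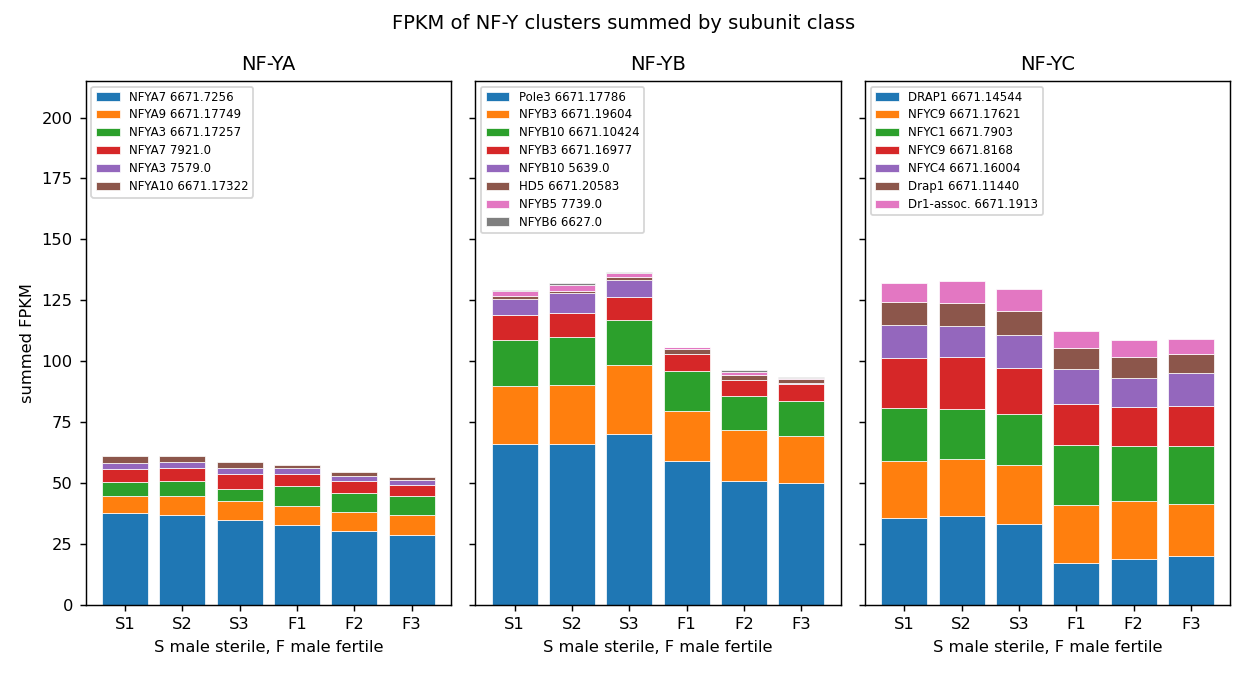
FPKM of the clusters of each NF-Y class, stacked by cluster, in each male sterile (S1 to S3) and male fertile (F1 to F3) library. The NF-YB stacks reach 129 to 137 in sterile and 93.5 to 106 in fertile libraries, and POLE3 and DRAP1 form the bottom blocks of NF-YB and NF-YC.

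Clusters that share a Swiss-Prot hit can be set against each other within a library, where the scale of the library cancels out. The NFYA3 pair (Cluster-6671.17257 over Cluster-7579.0) had FPKM ratios of 2.07, 2.85 and 2.02 in sterile and 3.45, 3.66 and 3.52 in fertile libraries. Every sterile ratio was below every fertile one, by -0.63 on the log2 scale. The NFYC9 pair (Cluster-6671.17621 over Cluster-6671.8168) had ratios of 1.13, 1.11 and 1.29 in sterile and 1.42, 1.49 and 1.30 in fertile libraries. Its groups were separate by the smallest of margins, with a log2 difference of -0.26.

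For both of these pairs the two-sided exact permutation p was 0.1, the smallest that 3 against 3 libraries allow, and 0.2 adjusted over the 4 pairs. The ratios of the NFYB3 pair (log2 difference -0.17, exact p = 0.3, adjusted 0.4) and of the NFYA7 pair (0.06, exact p = 0.7, adjusted 0.7) overlapped between clones. With this number of libraries none of the 4 differences could pass an exact test at 0.05, so the test decides nothing here. The pairs were also chosen after their values were seen.

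**Figure D5:**
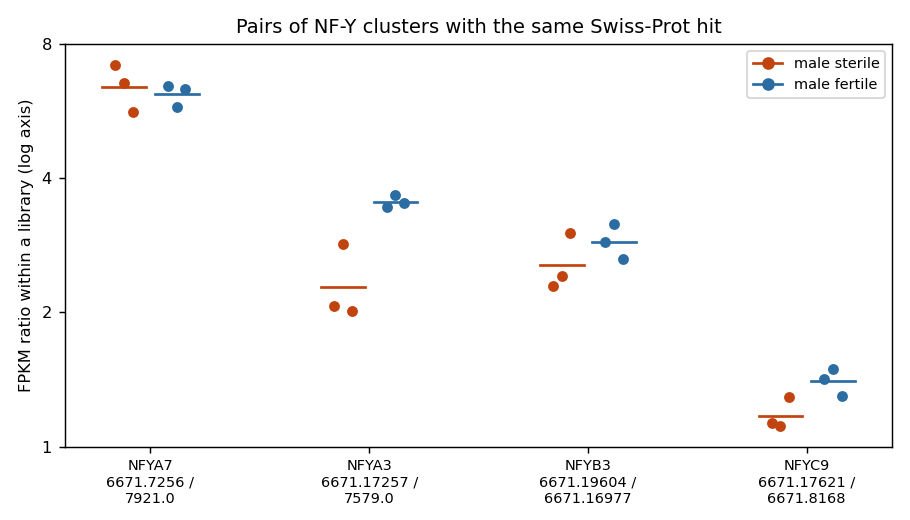
FPKM ratio, on a log axis, of the more abundant over the less abundant of 2 NF-Y clusters with the same Swiss-Prot hit, per male sterile (left, orange) and male fertile library (right, blue), with horizontal lines at the geometric means. The NFYA3 and NFYC9 ratios are separate between clones, and the NFYA7 and NFYB3 ratios overlap.

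Clusters matched by the names of known NF-Y partners and targets went both ways. Of 30 clusters 28 were tested, and by edgeR 12 had higher and 6 lower levels in sterile buds, while 10 passed in neither direction. Of all tested regulators 57.0% were called, 28.0% higher and 28.9% lower. The median change of the 28 was 0.18 on the log2 scale. On the implied totals the same fit called 15 higher and 5 lower, where it called 62.6% of all tested regulators (41.1% higher and 21.5% lower). CONSTANS-type proteins can join NF-YB and NF-YC dimers. Among 13 clusters matched by such names, 5 were higher and 3 lower. The match also took in clusters with MIP1B or CIA2 as Swiss-Prot hit. The lower ones were the MIP1B clusters and COL1 (28 counts in sterile and 74 in fertile buds). COL6 rose to 8.93 ± 0.105 FPKM in sterile buds, against 4.06 ± 0.142 in fertile buds, by 0.99 ± 0.10 on the log2 scale (SE; adjusted p = 3.70e-07, edgeR). A cluster with MIP1B as Swiss-Prot hit and a CONSTANS-LIKE nucleotide match was lower, at 10.6 ± 0.131 against 21.4 ± 2.09 FPKM (-1.17 ± 0.10, adjusted p = 1.46e-08).

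DELLA repressors of gibberellin response, which bind NF-YC in Arabidopsis, had 1 higher and 2 lower of 3 tested. Of all tested regulators 28.0% were higher and 28.9% lower. A GAI cluster at 85.3 ± 1.51 against 56.1 ± 2.15 FPKM was the higher one (0.46), and another GAI cluster at 64.4 ± 2.13 against 81 ± 5.84 FPKM was lower (-0.48). HY5, a light-response bZIP factor that binds NF-YC in Arabidopsis, was higher at 13.4 ± 0.436 against 8.94 ± 0.406 FPKM (0.43 ± 0.08, edgeR adjusted p = 1.55e-04). The other tested cluster matched by that name, HYH (Cluster-3926.0), was not called. It stood at 2.76 ± 0.471 against 3.24 ± 0.495 FPKM (-0.40 ± 0.20, edgeR adjusted p = 0.0992).

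Of 7 tested clusters matched by the ABI5 and ABF names, which include the ABF partner ARIA, 3 were higher and 1 lower. The shares over all tested regulators were 28.0% and 28.9%. ABI5, a bZIP factor of abscisic acid response, was among the higher ones at 5.66 ± 0.172 against 2.68 ± 0.333 FPKM (0.93 ± 0.13). The lower one, DPBF3 (Cluster-8439.0), had 1 count in sterile and 599 in fertile buds. LEC2, a seed programme factor alongside the NF-YB gene LEC1 in Arabidopsis, was higher at 4.65 ± 0.214 against 3.65 ± 0.443 FPKM (0.21 ± 0.08, adjusted p = 0.0397), and ABI3 was not called. The flowering factor matched as SOC1-like, with AGL42 as Swiss-Prot hit, was higher at 3.97 ± 0.07 against 2.15 ± 0.0907 FPKM (0.74). No cluster outside the NF-Y families matched Dr1 or another histone-fold name.

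Of the 21 NF-Y clusters, 6 had a q-value under 0.05 in the authors' deposited table, as did 677 of the 1508 regulators. They were both larger NF-YA changes, at log2 fold changes of -0.55 (NFYA3) and 0.81 (NFYA10), Cluster-5639.0, the Arabidopsis-type NFYB10 cluster (0.28), DRAP1 (0.81) and NFYC1 (-0.24). NFYA9, with a deposited q-value of 0.217, NFYB3 (Cluster-6671.16977), with 0.0835, and HD5, with 0.15, were called by the edgeR test and not there.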

How the data were processed

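Estimated counts of reads per transcript cluster, which need not be whole, and FPKM values were deposited by the authors in a table of regulators, per the file headers, with cluster length, annotation hits, and a log2 fold change and q-value of the authors' comparison. FPKM of 34377 clusters stand in a second deposited table, identical for shared clusters. Per the submitters' processing notes the tools included CASAVA, RSEM and Bowtie2, with no version given. No source used here names the assembler, the filters or the authors' test.

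Members were the clusters of family NF-YA, NF-YB or NF-YC, each used once (22 entries, 21 clusters). Members, lists and tests were chosen with earlier results of these data known. Estimated counts were rounded and fitted over the whole regulator table with edgeR 4.0.16 in R 4.3.3 (filterByExpr, which removed 128 clusters, TMM, robust glmQLFit and glmQLFTest, Benjamini-Hochberg over 1380 clusters, threshold 0.05). Each standard error is the fold change over the square root of F. Whole-library totals, were implied by regressing count over FPKM on length. Alternatives used limma 3.58.1 on log2(FPKM + pseudocount), in which the fold of low clusters is understated, and DESeq2 1.42.0. Every called member, the most abundant of each class and members with at most 3 counts in a group are given per library. Of each partner list the 2 with the smallest p that passed are given, and ABI3, HYH and COL1 in addition. The scripts were tested on simulated data. The pairs were chosen after their values were seen. Sequences, positions and variants were not analysed here.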

Additional observations from a re-analysis of the deposited data

How the results depend on the processing

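With the implied whole-library totals, and with limma on log2(FPKM + 1), on log2(FPKM + 0.1), on log2(FPKM + 5) and with no FPKM filter, 2 NF-YA clusters were higher and 1 lower, 6 NF-YB and 4 NF-YC clusters were higher, and 1 NF-YB and 1 NF-YC cluster were lower. In these settings 564 to 578 of all regulators were higher and 276 to 298 lower, of 1339 to 1508 tested. DESeq2 called 1 NF-YB cluster higher, and with no low-count filter 2 NF-YC clusters were lower. Of 1508 regulators, DESeq2 called 341 higher and 375 lower, and the fit with no low-count filter 365 and 442. Leaving out 1 library each gave 1 to 2 higher and 1 to 2 lower for NF-YA, 1 to 5 higher and 0 to 1 lower for NF-YB, and 1 to 3 higher and 1 to 2 lower for NF-YC. The calls over all regulators moved as well, at 318 to 455 higher and 351 to 451 lower, of 1387 to 1402 tested. Summing clusters of the same Swiss-Prot hit, DESeq2 size factors and a stricter count filter kept all of these counts within 1.5 times. The cause was not tested in any setting that lost or gained a call.

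Same-numbered sterile and fertile libraries did not deviate together (correlations of 0.016, 0.027 and 0.0089), so the numbers were not taken as pairs. With a replicate block 5 NF-Y clusters were higher and 4 lower, as without it, with 1, 3 and 1 higher and 2, 1 and 1 lower in NF-YA, NF-YB and NF-YC. For the partner list, whose alternatives were added after the data were seen, as was the sum over NF-Y-named clusters, the block gave 12 higher and 5 lower. With the block 389 of 1380 tested regulators were higher and 392 lower.

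Of 340 single-cluster values 14 changed sign, all of clusters that were not called, with values near 0 but for the summed NFYA3 pair. NFYA7 (Cluster-7921.0) was at -0.02 and -0.04 without fertile or sterile replicate 3, and at up to 0.12 without another library. NFYA3 (Cluster-7579.0) was at -0.02 with no count filter, at -0.05 to 0.08 without single libraries (-0.05 and -0.01 without fertile replicate 2 and 3 and without sterile replicate 1 and 3), and at -0.45 when summed with its larger namesake. NFYC9 (Cluster-6671.17621) was at 0.01 when summed with its namesake, 0.03 with the implied totals and 0.03 to 0.04 with limma. The NFYA7 pair ratio difference was -0.02 without sterile replicate 1, and 0.15 without sterile replicate 3.

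Rescaled by median ratios, mean class sums were 58.4 (NF-YA), 129 (NF-YB) and 128 FPKM (NF-YC) in sterile and 113 FPKM (NF-YC) in fertile buds. Over NF-Y-named clusters alone and without rescaling, they were 65.3 FPKM in sterile and 45.3 in fertile buds (NF-YB) and 78.3 and 76.5 FPKM (NF-YC). Rescaled, the NF-YC pair turned round, to means of 76 (sterile) and 78.3 FPKM (fertile). Counts of 10 to 92 limit NFYB5, NFYB6 and HD5.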
